A study of Mus musculus with 76 samples.

Results

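The cation-chloride cotransporters described here are Slc12a2, Slc12a5 and Slc12a7, 3 of the 56923 genes in the RNA count tables. They were listed by name as chloride importers and exporters that set how a cell responds to GABA. Slc12a2 (ENSMUSG00000024597.13) lies on chromosome 18 of mm39 from 58011164 to 58080812, Slc12a5 (ENSMUSG00000017740.19) on chromosome 2 from 164802722 to 164841668, and Slc12a7 (ENSMUSG00000017756.12) on chromosome 13 from 73881213 to 73964874. All 3 are protein-coding genes on the plus strand, and all 3 passed the filter on low counts in each RNA comparison.

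Slc12a2 encodes NKCC1, which carries chloride into cells together with sodium and potassium. Slc12a5 encodes KCC2, an exporter found in neurons, and Slc12a7 encodes KCC4, an exporter best known from epithelia such as those of the kidney and inner ear; both carry chloride out together with potassium. GABA-A and glycine receptors are chloride channels, so the balance of import and export sets whether GABA depolarizes or hyperpolarizes a neuron, and this balance is known to move from import to export as neurons mature.

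The samples were diencephalon of mouse embryos of strain C57BL/6J, with no treatment, at stages E11.5 and E17.5 (E, embryonic day). Wild type embryos came from wild type crosses. Humanized embryos came from homozygous crosses of a line made by CRISPR/Cas9 editing, in which human sequence replaces the mouse locus of the enhancer hs754 on chromosome 13. Tissue of 6 embryos at E11.5, or of 3 at E17.5, all from the same litter, was pooled into each replicate. The 4 RNA groups held 4 replicates each, 16 samples in all, with between 16414369 and 24272569 counts on genes per sample. Peak lists for H3K4me3, a mark of promoters, H3K27ac, a mark of active promoters and enhancers, and H3K27me3, a mark of Polycomb repression, came from E11.5 (2 replicates of each genotype) and E17.5 (3 of each). Those for CTCF, a protein that organizes chromatin, came from 3 replicates per genotype at E17.5. The design compares the stages within a genotype and the genotypes within a stage, the second to ask what the human sequence changes.

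Markers of the labelled tissue were present. The summed level of 12 diencephalon markers, in counts scaled to library size with TMM factors (normalized CPM), was 1614 ± 284 (SD, n = 4) in E11.5 wild type, 1400 ± 208 in E11.5 humanized, 1729 ± 130 in E17.5 wild type and 1832 ± 139 in E17.5 humanized samples, and its most abundant gene in each group was Tcf7l2. Telencephalon markers (4 genes) summed to 48.4 ± 9.30, 39.2 ± 6.49, 40.5 ± 9.59 and 39.4 ± 4.74 in the same order (SD, n = 4). Midbrain and hindbrain markers (5 genes) summed to 6.61 ± 4.97, 11.3 ± 7.03, 5.33 ± 2.404 and 5.13 ± 1.63, and Hoxa3 was at 0 in all 16 samples.

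A single RNA library stood apart from its group. Within each group, the median deviation of GC-rich genes (transcripts above 54.9% GC) minus that of GC-poor genes (below 44.2%) was taken over 10721 genes. It was 1.73 on the log2 scale in E17.5 wild type replicate 1, against -0.43 to -0.63 in the other 3 replicates of that group. The remaining samples lay between -0.61 and 0.63. Slc12a2, with a transcript GC content of 46.5%, was above its group mean in 8 of 8 samples with a negative difference and below it in 7 of 8 with a positive difference. Slc12a5 (58.5% GC) and Slc12a7 (54.6% GC) were above their group means in 1 of 8 and 3 of 8 samples with a negative difference. In replicate 1 of E17.5 wild type, Slc12a2 deviated by -1.30 from its group mean on the log2 scale, Slc12a5 by 0.35 and Slc12a7 by 0.79. Fitted wild type values of the 3 cotransporters between stages and between genotypes at E17.5, and of their ratio, are given with and without this library; medians of the gene lists below include it, and its part in them was not tested.

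Slc12a2, the importer, was among the more abundant genes at both stages and overlapped between the stages in the wild type. In E11.5 wild type replicates 1 to 4 its counts were 1341, 804, 2060 and 1860, and in E11.5 humanized replicates they were 909, 983, 949 and 1930. In E17.5 wild type replicates they were 584, 1957, 1888 and 2486, and in E17.5 humanized replicates 1630, 1946, 1902 and 1692. The lowest of all 16 counts was that of E17.5 wild type replicate 1. In normalized CPM per kb of exon, the level of Slc12a2 was 5.73 ± 1.99 in E11.5 wild type, 4.26 ± 1.32 in E11.5 humanized, 6.61 ± 2.84 in E17.5 wild type and 8.26 ± 1.02 in E17.5 humanized samples (SD, n = 4), and 8.01 ± 0.534 in E17.5 wild type without replicate 1 (SD, n = 3). In the humanized samples every E17.5 level was above every E11.5 level, whereas the wild type stages overlapped.

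Slc12a5, the neuronal exporter, rose between the stages in both genotypes. Its counts in E11.5 wild type replicates 1 to 4 were 263, 244, 209 and 276, and in E17.5 wild type replicates 5479, 3578, 4096 and 5317. In E11.5 humanized replicates they were 200, 277, 215 and 247, and in E17.5 humanized replicates 4082, 2804, 3525 and 3188. No E17.5 sample of either genotype came near any E11.5 sample, and within a stage the genotypes overlapped. The level of Slc12a5 per kb was 1.45 ± 0.167 and 1.31 ± 0.144 in E11.5 wild type and humanized samples, and 27.3 ± 4.97 and 23.7 ± 2.397 in E17.5 wild type and humanized samples (SD, n = 4 each); it was 24.9 ± 1.82 (SD, n = 3) in E17.5 wild type without replicate 1. In mean normalized CPM it was 18.9-fold higher at E17.5 in the wild type and 18.2-fold higher in humanized samples. In these bulk samples, fewer cells of a type and less RNA per cell cannot be told apart.

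Slc12a7, the other exporter, fell between the stages. Its counts in E11.5 wild type replicates 1 to 4 were 1478, 1721, 1359 and 2127, and in E17.5 wild type replicates 380, 212, 197 and 181. In E11.5 humanized replicates they were 2054, 2002, 1937 and 1734, and in E17.5 humanized replicates 187, 177, 149 and 119. Every E11.5 sample lay far above every E17.5 sample of either genotype. The level of Slc12a7 per kb was 6.18 ± 0.781 and 6.93 ± 1.05 in E11.5 wild type and humanized samples, and 0.937 ± 0.411 and 0.704 ± 0.111 in E17.5 wild type and humanized samples (SD, n = 4 each); it was 0.741 ± 0.150 (SD, n = 3) in E17.5 wild type without replicate 1. In mean normalized CPM it was 6.60-fold lower at E17.5 in the wild type and 9.85-fold lower in humanized samples.

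The 2 exporters exchanged places in level beside the importer. At E11.5 in the wild type, Slc12a7 and Slc12a2 stood at similar levels per kb, overlapping in their replicates, and Slc12a5 lay below both with no overlap. At E17.5 in the wild type, Slc12a5 was highest, Slc12a2 followed and Slc12a7 was lowest, and no 2 neighbours in this order overlapped. The same order with no overlap held in E17.5 humanized samples. Among 21631 protein-coding genes in the wild type, Slc12a5 moved from above 54.2% of genes to above 94.7% in level per kb, Slc12a7 from above 76.1% to above 46.6%, and Slc12a2 from above 74.8% to above 76.0%. The median protein-coding gene was at 0.924 normalized CPM per kb at E11.5, then 1.30 at E17.5.

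**Figure D1:**
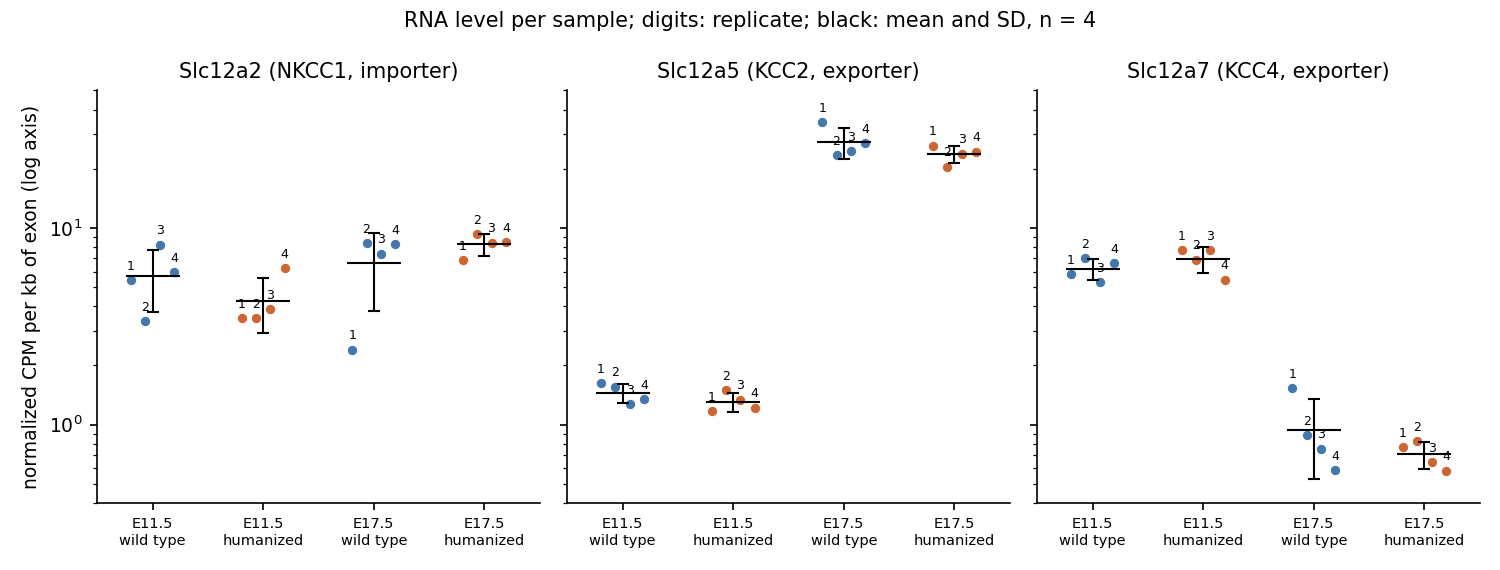
Level of each cotransporter in normalized CPM per kb of exon (log axis) in every RNA sample, by stage and genotype; digits give the replicate and black bars the mean and SD (n = 4). Slc12a5 was at 1.45 in E11.5 and 27.3 in E17.5 wild type samples and Slc12a7 at 6.18 and 0.937, while the wild type stages overlapped for Slc12a2, with replicate 1 at 2.403 in E17.5.

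Between the stages in the wild type, 2 of the 3 cotransporters were called at an adjusted p under 0.05 by edgeR's quasi-likelihood test, where 55.7% of the 18583 genes tested were called (5393 higher and 4963 lower at E17.5). Such a count is close to the share among all genes, and the sizes of the changes set these genes apart more than the calls. Slc12a5 had a log2 fold change of 4.23 (SE 0.204, edgeR adjusted p = 3.1e-07, higher in 4 of 4 E17.5 samples), and 544 of the genes tested (2.93%) had a higher value. For Slc12a7 the log2 fold change was -2.73 (SE 0.290, edgeR adjusted p = 2.2e-05, lower in 4 of 4 E17.5 samples), with 498 genes (2.68%) lower. Without E17.5 wild type replicate 1 these values were 4.09 and -3.09, and 13994 of 19351 genes were called. Slc12a2 had 0.19 (SE 0.386, edgeR adjusted p = 0.696), and 0.46 (edgeR adjusted p = 0.0755, the lowest of 0.0755 to 0.972 over the alternatives) without that replicate.

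In humanized samples 3 of the 3 were called, where 77.7% of 18781 genes tested were called. The log2 fold change of Slc12a5 was 4.17 (SE 0.1299, edgeR adjusted p = 4.0e-10, higher in 4 of 4 E17.5 samples), with 765 genes (4.07%) higher. Slc12a7 fell by 3.30 on the log2 scale (SE 0.157, edgeR adjusted p = 4.4e-09, lower in 4 of 4 E17.5 samples), with 391 genes (2.08%) lower. Slc12a2 rose by 0.94 (SE 0.198, edgeR adjusted p = 9.0e-04, higher in 4 of 4 E17.5 samples). That Slc12a2 passed the test in one genotype and not in the other does not show a difference between them. The genotype by stage interaction itself was 0.75 for Slc12a2 (SE 0.455, edgeR adjusted p = 0.462), -0.05 for Slc12a5 (SE 0.211, adjusted p = 0.898) and -0.57 for Slc12a7 (SE 0.326, adjusted p = 0.462). None of the 3 was called for the interaction by edgeR, nor was any of 20234 genes tested (0%), with 1610 at an unadjusted p under 0.05 and 0 called by DESeq2. The number at an unadjusted p under 0.05 (edgeR) ran from 688 to 3749 on leaving out each replicate. It was 3299 with the replicate number as a block. Without E17.5 wild type replicate 1, the interaction was 0.47 for Slc12a2, 0.08 for Slc12a5 and -0.23 for Slc12a7.

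Between the genotypes within a stage, no cotransporter passed the test. At E11.5 edgeR called 0 of the 3 and 0% of 17816 genes tested, with 1058 genes at an unadjusted p under 0.05 and 2 genes called by DESeq2. The humanized minus wild type log2 fold change was -0.45 for Slc12a2 (SE 0.270, edgeR adjusted p = 0.578), -0.17 for Slc12a5 (SE 0.132, adjusted p = 0.585) and 0.14 for Slc12a7 (SE 0.128, adjusted p = 0.615). At E17.5 edgeR called 0 of the 3 and 0% of 18763 genes tested, with 207 genes at an unadjusted p under 0.05 and 1 gene called by DESeq2. Here the number at an unadjusted p under 0.05 (edgeR) ran from 82 to 750 on leaving out each replicate. It was 717 with the replicate number as a block. The log2 fold changes at E17.5 were 0.32 for Slc12a2 (SE 0.330), -0.21 for Slc12a5 (SE 0.183) and -0.42 for Slc12a7 (SE 0.291), each with an edgeR adjusted p of 0.808. Without E17.5 wild type replicate 1 they were 0.04, -0.08 and -0.08. Slc12a7, which shares chromosome 13 with hs754, thus differed between the genotypes at either stage by less than the test could separate from the spread between replicates.

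The ratio of exporter to importer, Slc12a5 counts per kb over Slc12a2 counts per kb in the same sample, needs no scaling for library size. It is still open to the GC difference between libraries, as the transcripts hold 58.5% GC for Slc12a5 and 46.5% for Slc12a2. GC offsets were not applied to the ratio. In E11.5 wild type replicates 1 to 4 it was 0.2996, 0.464, 0.155 and 0.227, and in E17.5 wild type replicates 14.3, 2.79, 3.31 and 3.27. In E11.5 humanized replicates it was 0.336, 0.431, 0.346 and 0.196, and in E17.5 humanized replicates 3.83, 2.201, 2.83 and 2.88. The ratio lay below 1 in every E11.5 sample and above 1 in every E17.5 sample of both genotypes, and E17.5 wild type replicate 1 had the highest value, through a low Slc12a2 count together with the highest Slc12a5 count. On the longest coding transcripts in place of all exons, the group geometric means were 0.206, 0.246, 3.56 and 2.25 in the order E11.5 wild type, E11.5 humanized, E17.5 wild type and E17.5 humanized.

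The mean log2 ratio was -1.92 ± 0.67 in E11.5 and 2.19 ± 1.11 in E17.5 wild type samples (SD, n = 4), a geometric mean of 0.264 and 4.56. The difference of 4.11 is 17.3-fold, with the higher ratio in 4 of 4 E17.5 samples. A two-sided exact permutation test gave p = 0.0286, the smallest that 70 splits of 4 against 4 allow, and 0.0571 after Benjamini-Hochberg adjustment over the 4 tests of the ratio, so the difference did not pass the adjusted threshold. Without E17.5 wild type replicate 1 the geometric mean was 3.12 and the difference 3.56, or 11.8-fold (exact permutation p = 0.0286, the smallest possible). In humanized samples the mean log2 ratio was -1.67 ± 0.48 at E11.5, then 1.53 ± 0.33 at E17.5 (SD, n = 4), geometric means of 0.315 and 2.88, and the difference of 3.19 is 9.15-fold (exact permutation p = 0.0286, adjusted 0.0571, higher in 4 of 4 E17.5 samples).

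Between genotypes the ratio overlapped at both stages. The humanized minus wild type difference in mean log2 ratio was 0.25 at E11.5 (two-sided exact permutation test, p = 0.6, adjusted 0.6) and -0.66 at E17.5 (p = 0.371, adjusted 0.495). Without E17.5 wild type replicate 1 the second was -0.11 (exact permutation p = 0.657).

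**Figure D2:**
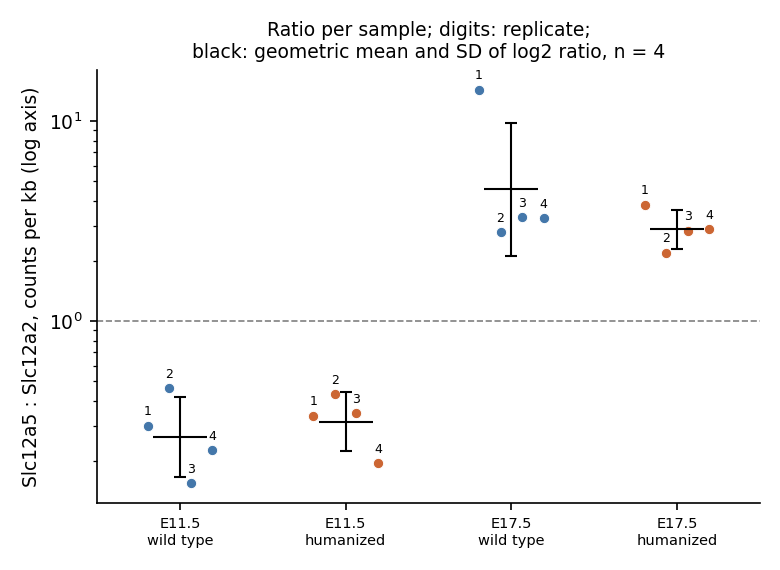
Ratio of Slc12a5 to Slc12a2 in counts per kb of exon (log axis) in every RNA sample; digits give the replicate, black bars the geometric mean and the SD of the log2 ratio (n = 4), and the dashed line a ratio of 1. E11.5 samples lay between 0.155 and 0.464 and E17.5 samples between 2.201 and 14.3, with E17.5 wild type replicate 1 highest.

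Genes on the other strand could raise or lower these counts, since the counts used ignore strand. Ncoa5, on the minus strand, overlaps the 3′ end of Slc12a5 by 281 bp, and the share of Slc12a5 counts found again in the column for 1 strand was 92.6% to 99.7% over the 16 samples. Gm61429, a long noncoding RNA on the minus strand, overlaps Slc12a7 by 1936 bp and has no row in the count tables. The same share was 99.4% to 100% for Slc12a2 and 96.7% to 100% for Slc12a7.

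Other members of the family measured beside these 3 include Slc12a1, Slc12a3, Slc12a4, Slc12a8 and Slc12a9. Slc12a1 and Slc12a3, the cotransporters of kidney tubules, had at most 13 and 4 counts in any sample and were not tested between stages. Slc12a4, which encodes the widely expressed exporter KCC1, fell by 0.71 in humanized samples (SE 0.197, edgeR adjusted p = 0.0057) and had -0.0044 in the wild type (adjusted p = 0.989). With offsets for GC content, an alternative chosen after seeing the data, the humanized value was -0.10 (edgeR adjusted p = 0.629, in a range over alternatives of 0.00071 to 0.629). Slc12a8 and Slc12a9 passed in neither genotype, with -0.07 and 0.52 in the wild type and -0.60 and -0.08 in humanized samples; Slc12a8 was called without E17.5 humanized replicate 1 (-0.74). The wild type value of Slc12a9 was near the threshold (edgeR adjusted p = 0.0616) and lowest without E17.5 wild type replicate 1 (0.31, not called). It was called without E17.5 wild type replicate 2 (0.62), with the size factors of DESeq2 (0.57), with the counts of column 4 (0.53), with all 16 samples in one fit (0.53) and with GC offsets (0.67, adjusted p = 6.7e-04). With GC offsets the humanized value of Slc12a9 was 0.57 and called as well (adjusted p = 0.0030).

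Per kb, the family genes named here and tested ran in E11.5 wild type samples from Slc12a7 and Slc12a2 down through Slc12a4 (1.72 ± 0.373), Slc12a5, Slc12a9 (1.14 ± 0.121) and Slc12a8 (0.231 ± 0.0451; SD, n = 4). Slc12a7 overlapped Slc12a2, and Slc12a4 overlapped Slc12a5. At E17.5 their wild type order was Slc12a5, Slc12a2, Slc12a4 (1.72 ± 0.466), Slc12a9 (1.65 ± 0.452), Slc12a7 and Slc12a8 (0.220 ± 0.115; SD, n = 4). Slc12a4, Slc12a9 and Slc12a7 overlapped each with the next.

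Lists of genes that act with the cotransporters, and the marker lists further below, are described by their counts and medians, with no test of a list. The counts stand against 55.7% of all genes tested called in the wild type (5393 higher and 4963 lower) and 77.7% in humanized samples (7175 higher and 7426 lower). A gene that passes the filter on low counts through a single stage can be called in 1 direction alone, so the number that passes among the samples of the other stage is given where it is smaller. Of 13 kinases and partners of the cotransporters, which include the WNK kinases and their targets, 6 rose and 4 fell in the wild type (median log2 fold change 0.46, against -0.015 over all genes tested). Neto2, a protein that binds KCC2, had the largest rise (2.54, or 1.496 with GC offsets) and Ckb, the brain creatine kinase, the largest fall (-1.29). In humanized samples 7 rose and 3 fell, a share near that among all genes. Of the 6 subunits of the sodium-potassium pump, which builds the ion gradients the cotransporters use, 4 rose and 2 were not called in the wild type, with a median of 2.79; their E17.5 wild type sum was 2982 normalized CPM in replicate 1 and 1656 to 1843 in the others. Of 11 other genes of chloride and bicarbonate transport, 8 rose and 2 fell (median 1.34; 9 passed the filter among E11.5 samples), from Slc4a10, a sodium bicarbonate transporter (7.29, from a mean of 10.4 to 1782 counts over both genotypes), to Car2, a carbonic anhydrase (-2.20).

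Genes on the GABA side that were tested were called higher. Of 9 genes for the synthesis and transport of GABA and glycine, 8 were tested and 8 rose in each genotype, with a median of 2.47 in the wild type and 2.85 in humanized samples. Slc6a11, a GABA transporter, had the largest rise in the wild type (6.77). Of 18 subunits of GABA-A and glycine receptors, 14 were tested and 14 rose in each genotype, with medians of 4.57 and 5.39. Of the 18, 11 passed the filter on low counts among E11.5 samples, so the other receptor genes counted here were tested through their E17.5 counts, which fixes their direction and lifts the counts and medians. Glra3, which is among them, had the largest value (8.99, or 10.57 without E11.5 wild type replicate 3 and 8.08 with GC offsets), from a mean of 0.625 counts over the E11.5 samples to 199 over the E17.5 samples of both genotypes, so its fold change is set by few reads and is no bound. Gabra6 and Gabrd were at 0 in all E11.5 samples. The receptor sum in E17.5 wild type was 594 normalized CPM in replicate 1 and 1476 to 1664 in the others.

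Regulators known for Slc12a5 divided in the wild type, with 2 of 8 tested higher and 1 lower (median 0.14). Ntrk2, the receptor for BDNF, rose by 2.72, and Rest, which encodes a repressor of neuronal genes, fell by 1.502 on the log2 scale (SE 0.280, edgeR adjusted p = 0.0010). In humanized samples 3 rose and 3 fell, and Rest fell by 1.18. In the 2 genotype comparisons and the interaction, no gene of any of the 19 lists was called by edgeR.

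Markers of cell types in the tissue differed between the same stages, and their part in the results above was not tested. Neuron markers (6 genes) summed to 1791 ± 212 normalized CPM in E11.5 and 5767 ± 294 in E17.5 wild type samples (SD, n = 4), with 5 rising and 1 not called, Tubb3 most abundant at E11.5 and Map2 at E17.5; Syt1 had 3.42. The E11.5 sums were 2006, 1585, 1938 and 1635 in replicates 1 to 4, and the E17.5 sums were 5893, 5974, 5330 and 5869. Neural progenitor markers (6 genes) summed to 3887 ± 101 and 616 ± 128 (SD, n = 4), with 6 falling and Nes at -4.10. In the E17.5 wild type samples the progenitor sum was highest in replicate 1 (802, against 514 to 584), as was Slc12a7. That is the library with the GC difference of 1.73, and what raised either value there was not tested. In humanized samples 5 neuron markers rose and 6 progenitor markers fell.

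Markers of other cell types differed as well. Of 6 astrocyte markers 5 rose in the wild type (median 3.61, Aqp4 6.76, or 6.12 with GC offsets; 3 passed the filter among E11.5 samples), and of 6 oligodendrocyte lineage markers 5 rose (median 0.93, Sox10 4.30, or 5.81 without E11.5 wild type replicate 2; 5 passed there). Choroid plexus, an epithelium in which NKCC1 and KCC4 are known to act, had 3 of 6 markers higher (median 1.03; 4 passed there), and their sum was 18.6 ± 3.15 normalized CPM in E11.5 and 249 ± 72.7 in E17.5 samples (SD, n = 4), of which Ttr made 225. Meningeal and mesenchymal markers (6 genes) had 1 higher, Dcn (1.43), and 5 lower (median -1.57, Lum -2.89, or -3.97 with GC offsets). Of 5 endothelial markers Cldn5 rose (1.36, and 0.89 without E17.5 wild type replicate 1; median -0.04), of 5 microglia markers P2ry12 rose (1.47, and 0.97 with GC offsets; median 0.14), and of 8 blood markers Hbb-bs rose (5.06) and the 3 embryonic globins fell (median -0.47, Hbb-bh1 -14.82, or -16.43 without E17.5 wild type replicate 1, from a mean of 15650 to 0.25 counts over both genotypes; 5 of the 8 passed the filter among E17.5 samples). Diencephalon markers had 2 higher and 5 lower of 11 tested (median 0.20, Dlx1 1.54, Barhl2 -2.96). Of 4 telencephalon markers 2 rose and 2 fell (median 2.77, Emx1 -3.70, or -5.78 without E17.5 wild type replicate 1; 2 passed the filter among E11.5 and 3 among E17.5 samples), and of 2 midbrain and hindbrain markers tested 0 were called by edgeR (0 at an unadjusted p under 0.05; median -0.32).

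The protein-coding genes whose profiles over the 16 samples were most like those of the cotransporters were found among 12490 genes, by the root mean square difference of log2 CPM centred on each gene's own mean. For Slc12a5 they were Syt3 (0.181), Ppp2r2b, Kcnip2, Kcnt1 and Cds1 (0.227), and 18 genes lay within 0.3, with a median of 2.16 over all genes. For Slc12a7 they were Smad3 (0.154), Col18a1, Timeless, Smo and D17H6S56E-5 (0.185), with 72 genes within 0.3 and a median of 1.55. For Slc12a2 they were Rnf138 (0.0923), Strn3, Miga1, Zfp266 and Slc4a7 (0.105), with 615 genes within 0.3 and a median of 0.867; the transcript GC content of these 5 was 38.9% to 44.7%, and the profile of Slc12a2 moved with the GC difference between libraries given above.

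At the promoters, a gene was counted as marked where every wild type list of a stage had a peak with at least 1 bp within 1000 bp of an annotated start of a protein-coding transcript. H3K4me3 marked 3 of the 3 cotransporters at E11.5 (65.2% of 21594 protein-coding genes) and 3 at E17.5 (65.4%). H3K27ac marked 2 at E11.5 (49.4%) and 3 at E17.5 (59.1%). Of H3K27me3 the numbers were 2 at E11.5 (21.4%), then 2 at E17.5 (21.5%), while CTCF marked 3 at E17.5 (38.3%). Which gene carried which mark, and at which start, differed among the 3. The values below are fold enrichment of the peak over local background; as lists do not give read depth and the lists of a stage were called apart, they are described with no test between stages. The wild type lists also differed in length: H3K27ac lists held 32418 to 36150 peaks at E11.5, then 62720 to 77419 at E17.5, and H3K27me3 lists 13850 to 19166, then 27452 to 43700, while H3K4me3 lists held 23864 to 25080, then 23471 to 24877. A peak found at E17.5 and not at E11.5 runs with the longer lists of H3K27ac and H3K27me3, and the part of list length in it was not tested.

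Slc12a2 carried both active marks at both stages. Around its start at 58011164, the H3K4me3 peak had a fold enrichment of 52.5 and 52.8 in the E11.5 lists and 61.9 ± 2.09 (SD, n = 3) at E17.5, and H3K27ac had 14.1 ± 1.21 (SD, n = 2) and 26.5 ± 0.879 (SD, n = 3). The medians of all marked genes were 47.1 and 54.4 for H3K4me3 and 10.7 and 21.1 for H3K27ac, so Slc12a2 lay above the median for both marks at both stages. H3K27me3 had no peak there in 2 of 2 E11.5 and 3 of 3 E17.5 lists. CTCF had 6.25 ± 1.47 (SD, n = 3), below the median of 10.7. Humanized lists gave 49.8 and 62.1 for H3K4me3, 19.8 and 23.6 for H3K27ac, and no H3K27me3 peak. This combination, H3K4me3 and H3K27ac in every list and H3K27me3 in none, held for 7595 genes (35.2%), with a median wild type stage log2 fold change of -0.15.

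Slc12a5 has annotated starts in 2 places, which differed in their marks. The upstream start is at 164802744, and 8 downstream starts lie between 164809121 and 164810159. At the upstream start H3K4me3 was 16.9 ± 0.491 (SD, n = 2) at E11.5, then 54.0 ± 0.651 (SD, n = 3) at E17.5. H3K27ac had a peak there in 0 of 2 lists at E11.5, then 3 of 3 at E17.5 (16.4 ± 1.56, SD, n = 3), and H3K27me3 in none of the 5 lists. CTCF was at 42.4 ± 7.69 (SD, n = 3), higher than at 92.0% of the genes that CTCF marked. Its peaks lay downstream of this start, between 164803096 and 164804393, and reached past the window, which ends at 164803744.

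At the downstream starts of Slc12a5 the repressive mark was present, with a smaller peak at E17.5. H3K27me3 spanned 164806713 to 164814748 in the E11.5 lists, with a fold enrichment of 13.6 ± 1.04 (SD, n = 2), higher than at 87.7% of marked genes, and was 3.61 ± 0.232 (SD, n = 3) at E17.5, where the median marked gene was at 5.05. H3K4me3 there was 11.2 ± 4.18 (SD, n = 2) at E11.5, then 54.8 ± 10 (SD, n = 3) at E17.5, and H3K27ac had a peak in 0 of 2 and then 3 of 3 lists (29.0 ± 7.12, SD, n = 3). Acetylation also lay between the 2 sets of starts, from 164804667 to 164807963 (25.9 ± 4.88, SD, n = 3), at E17.5. A separate H3K27me3 region at the 3′ end of the gene held in 2 of 2 lists at E11.5 (164836950 to 164842216, 7.31 ± 0.912, SD, n = 2) and 3 of 3 at E17.5 (164837227 to 164841841, 5.32 ± 0.785, SD, n = 3).

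Humanized lists held similar peaks at Slc12a5. At the downstream starts H3K4me3 was 14.4 and 60.4 at E11.5 and E17.5, H3K27me3 13.7 and 3.56, and H3K27ac 25.5 at E17.5 with no peak in 2 lists at E11.5. At the upstream start H3K4me3 was 19.9 and 50.3 and CTCF 37.1. H3K27ac at the upstream start had a peak in 1 of 2 humanized lists at E11.5 (4.11) and was 7.49 ± 2.77 at E17.5, where the wild type lists gave 16.4 (SD, n = 3); this difference between genotypes was not tested.

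**Figure D3:**
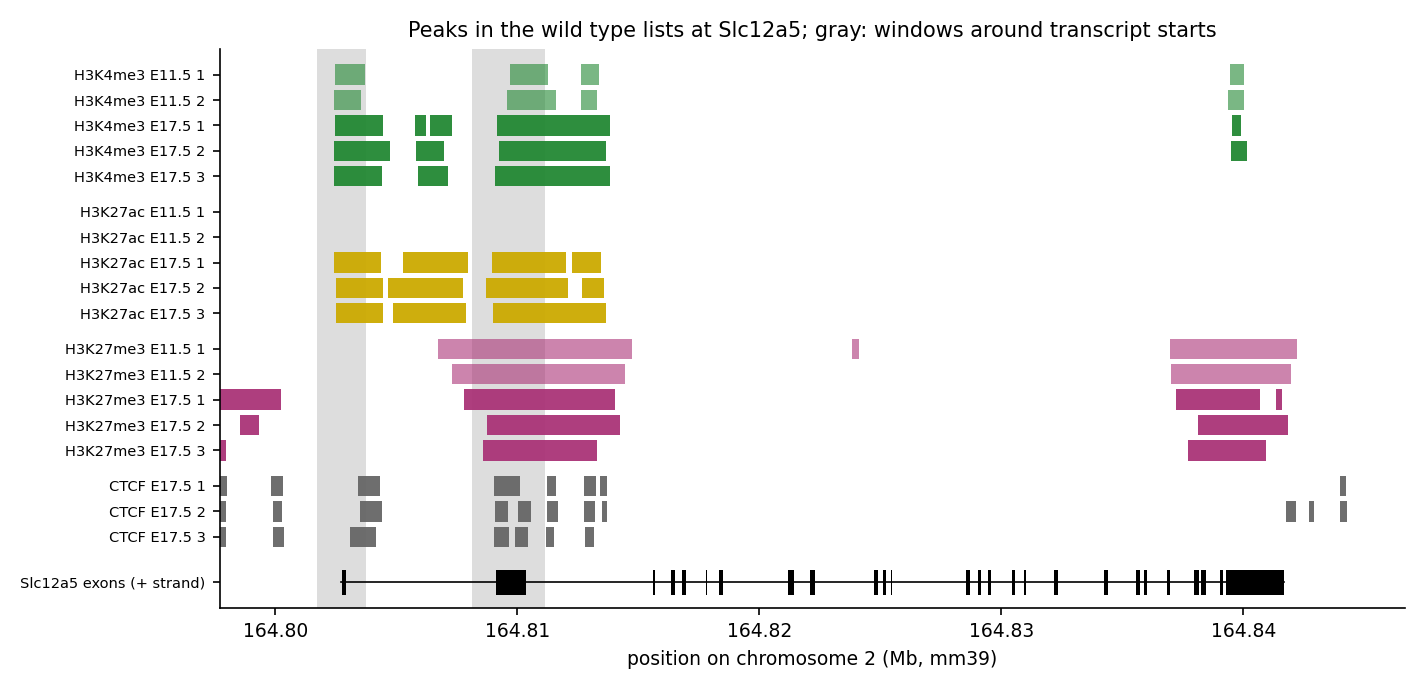
Peaks of the wild type lists along Slc12a5 on chromosome 2 (Mb, mm39), a row per mark, stage and replicate, with exons in black and the windows around transcript starts in gray; box heights carry no value. H3K27ac boxes are found at E17.5 and not at E11.5, while H3K27me3 lies over the downstream starts, from 164806713 to 164814748 at E11.5, and over the 3′ end.

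Genes with the marks of Slc12a5 were called higher at E17.5 more often than lower. Among all 18583 genes tested, 5393 rose and 4963 fell (median -0.01). An H3K27ac promoter peak in no E11.5 list and every E17.5 list held for 1654 genes (7.66%), and of the 1473 with an RNA test 1040 rose and 116 fell (median log2 fold change 1.98). With H3K27me3 in every E11.5 list besides, there were 1036 genes (4.80%), of which 745 rose and 62 fell among 966 tested (median 2.36, against 4.23 for Slc12a5). How many genes of the sets in this paragraph pass the filter on low counts among E11.5 samples was not counted. Those that pass through E17.5 samples alone can only be called higher. The filter may therefore lift these counts and medians, and no conclusion on the marks is drawn from them. Slc12a5 and Slc12a7 were also among the 3364 genes (15.6%) with both H3K4me3 and H3K27me3 in every list at both stages, of which 1453 rose and 655 fell (median 0.72); Slc12a5 rose and Slc12a7 fell.

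Fold enrichments of H3K4me3 and H3K27ac at the downstream starts of Slc12a7 were lower in the E17.5 lists. Its 5 downstream starts lie between 73911803 and 73911827, and H3K4me3 there was 54.6 ± 7.05 (SD, n = 2) at E11.5, then 34.9 ± 10.7 (SD, n = 3) at E17.5. H3K27ac was 8.37 ± 1.36 (SD, n = 2) and 3.504 ± 1.07 (SD, n = 3), the latter higher than at 0.3997% of marked genes. H3K27me3 had a peak in 0 of 2 lists at E11.5, then in 3 of 3 at E17.5 (4.04 ± 0.532, SD, n = 3), and CTCF was 5.67 ± 0.7998 (SD, n = 3). At the upstream start (73881213) H3K4me3 was 12.1 ± 1.95 and 15.8 ± 1.12, H3K27me3 3.47 ± 0.791 and 5.90 ± 0.549 (SD, n = 2 and 3), and neither H3K27ac nor CTCF had a peak in any list. Within the gene, H3K27ac and CTCF had peaks in 3 of 3 E17.5 lists between 73920677 and 73921816. Humanized lists are not used for Slc12a7, whose positions on chromosome 13 are shifted by the replaced sequence.

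Of the 3, 21 combinations of gene, mark and stage were counted, and in 18 every wild type list had a peak; at a -log10 q of at least 5 this held in 15. The 3 that dropped out were H3K27ac at Slc12a7 at E17.5 (1 of 3 lists left), H3K27me3 at Slc12a7 at E11.5 (1 of 2) and H3K27me3 at Slc12a5 at E17.5 (2 of 3), so the weakest peaks above are also those nearest to the threshold.

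**Figure D4:**
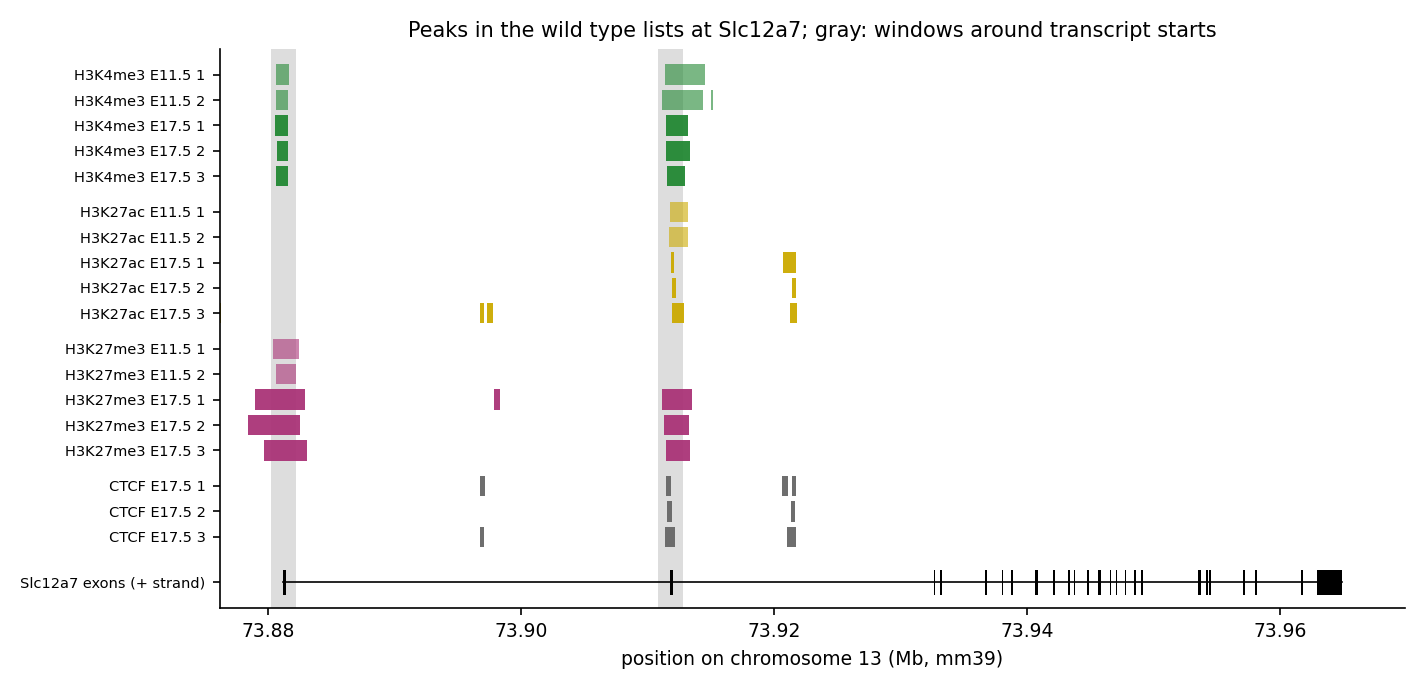
Peaks of the wild type lists along Slc12a7 on chromosome 13 (Mb, mm39), a row per mark, stage and replicate, with exons in black and the windows around transcript starts in gray; box heights carry no value. At the downstream starts H3K27me3 boxes are found in 3 of 3 lists at E17.5 and in 0 of 2 at E11.5.

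The promoters of the exporters are shown because the peaks listed there differed between the stages. Each sequence is the 250 bases before the first exon annotated there for any transcript of the gene, on the plus strand of GRCm39, outside the exons of that gene. At the downstream starts of Slc12a7 this exon belongs to a transcript not annotated as protein-coding and begins shortly before the first protein-coding start. Capitals mark the GC box (GGGCGG), the E-box CACGTG and the CCAAT box, searched on both strands with TATAAA, GCGTGGGCG and GCGGGGGCG, which had no match here. The upstream promoter of Slc12a5 is chr2:164802472-164802721, the downstream promoter of Slc12a7 chr13:73911543-73911792 and its upstream promoter chr13:73880963-73881212.
Slc12a5 upstream: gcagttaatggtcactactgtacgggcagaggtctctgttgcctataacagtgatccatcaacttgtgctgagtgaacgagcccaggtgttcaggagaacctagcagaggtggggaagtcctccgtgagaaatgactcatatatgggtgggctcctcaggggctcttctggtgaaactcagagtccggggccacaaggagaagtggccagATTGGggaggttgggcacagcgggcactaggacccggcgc
Slc12a7 downstream: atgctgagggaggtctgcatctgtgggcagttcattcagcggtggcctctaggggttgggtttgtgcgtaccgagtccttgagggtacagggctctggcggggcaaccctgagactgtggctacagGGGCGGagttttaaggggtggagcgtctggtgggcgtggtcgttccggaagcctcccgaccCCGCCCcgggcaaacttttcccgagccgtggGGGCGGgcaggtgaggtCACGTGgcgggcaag
Slc12a7 upstream: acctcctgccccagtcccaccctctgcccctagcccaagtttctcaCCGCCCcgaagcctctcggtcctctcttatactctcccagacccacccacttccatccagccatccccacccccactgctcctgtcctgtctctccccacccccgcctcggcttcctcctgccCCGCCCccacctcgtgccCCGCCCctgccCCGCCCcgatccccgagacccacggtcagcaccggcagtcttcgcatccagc

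The upstream promoter of Slc12a5 held 1 CCAAT box, as ATTGG, and no GC box. The downstream promoter of Slc12a7 held 3 GC boxes and 1 E-box next to the start, and its upstream promoter 4 GC boxes. For the downstream starts of Slc12a5, the 250 bases before the start of the Ensembl canonical transcript (164809653 to 164809902) were taken. They overlap an exon and held 1 E-box and 1 GC box, and the 250 bases before Slc12a2 held none of the 6 motifs. Among 21770 promoters of this length, 36.3% held a GC box, 6.26% the E-box, 36.5% a CCAAT box, 11.9% TATAAA, 0.547% GCGTGGGCG and 2.39% GCGGGGGCG. The observed over expected ratio of CpG dinucleotides was 0.910 for Slc12a2, 0.368 and 0.613 for the upstream and downstream starts of Slc12a5, and 0.710 and 0.688 for those of Slc12a7, against a median of 0.474. These matches describe the sequence and do not show that a factor binds.

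Slc12a5 also held letters of the element bound by REST, a repressor of neuronal genes. The element TTCAGCACCNNGGACAG was searched on both strands, comparing 15 letters, and the 3 matches with up to 2 mismatches all lay in introns, on the minus strand. They are chr2:164808494-164808510, chr2:164810573-164810589 and chr2:164821859-164821875 of GRCm39, given as sites 1 to 3 with matched letters in capitals because 2 of them fall in the H3K27me3 region of the downstream starts.
site 1: TTCAGgACCttGGACAG
site 2: TcCAGaACCgtGGACAG
site 3: TTCAGCACCacGGACAG
Site 1 (1 mismatch) lay in an H3K27me3 peak in 2 of 2 E11.5 lists and 1 of 3 E17.5 lists. Site 2 (2 mismatches) lay in H3K27me3 peaks in 2 of 2 and 3 of 3 lists, and in H3K4me3 and H3K27ac peaks in 3 of 3 E17.5 lists. Site 3 (0 mismatches) lay in no peak of these marks. Slc12a2 and Slc12a7 held no match with up to 2 mismatches. In windows of 38947 bp, the length of Slc12a5, for 21757 genes, 0.552% held an exact match and 0.276% as many as 3 matches with up to 2 mismatches. Binding of REST at these sites, and any part of it in the level of Slc12a5, was not tested.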

How the data were processed

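The members and gene lists were chosen with earlier results of these data known. Of 76 samples, 16 RNA samples and 36 peak lists were used, and 24 input samples were not used here. For RNA, the authors aligned polyA-selected reads to mm39 with STAR 2.7.9a and deposited raw counts per gene, without strand (column 2, used here) and per strand (column 4). Reads on no gene (48.1% to 58.4% of a sample) were left out of library sizes. For ChIP-seq, the authors aligned reads with Bowtie2 2.4.2 and called peaks per replicate with MACS2 2.2.7.1; the deposited lists give each peak's fold enrichment relative to local background, with p and q as -log10 values. The sources do not state whether H3K27me3 peaks were called with the broad setting of MACS2, so its fold enrichment may be an average over a region or a value at a summit. According to the study's methods, the H3K27ac antibody also bound an acetylated form of histone H2B. Gene names and starts came from GENCODE M39, to which 98.8% of gene IDs matched.

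Counts were filtered with filterByExpr, scaled by TMM and tested with edgeR 4.0.16 (limma 3.58.1, R 4.3.3), with Benjamini-Hochberg adjusted p under 0.05 as the threshold, on the 8 samples of each comparison or all 16 for the interaction; this was tested on simulated data. Alternatives were DESeq2 1.42.0, its size factors, no filter, column 4, all 16 samples in one fit, the replicate number as a block, leaving out each replicate, and, chosen after seeing the data, offsets for transcript GC content in 20 bins. Ratios, peaks and sequences were computed with Python 3.11.15, numpy 2.4.6 and pandas 2.3.3, and figures with matplotlib 3.10.9. Peaks were also counted within 2000 bp, at a -log10 q of at least 5 and with 50% overlap. Replicates were separate pools of embryos, so p-values measure the spread between pools. Differences between litters and between library preparations cannot be told apart in it. Sequencing depth limits genes of few counts; the 16414369 to 24272569 counts per sample left each of the 3 members at 119 counts or more.

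Genes were named by rule: the 3 members, other genes of the Slc12 family, the called gene with the largest rise and fall of each list in the wild type stage comparison, list genes at 0, the 5 genes most like each member (mean log2 CPM of at least 1), and list genes called for genotype. The most abundant gene of a marker list was named as well. Some genes that the rule picks are not reported here.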

Additional observations from a re-analysis of the deposited data

Results flagged for a closer look

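In 120 groups of 4 samples, the gap from a far sample to its nearest neighbour was set against the range of the group, and 11 groups had a gap above Dixon's 95% critical value for 4 samples. Chance gives about 1 in 20 groups. No cause was tested for any of them.

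Of these, 6 were in E17.5 wild type replicate 1, and 5 of them are given here. Its GC difference was 1.73 on the log2 scale, against -0.63 to -0.43 in the other 3 replicates. Slc12a2 was at 30.5 normalized CPM, against 93.9 to 106. The log2 ratio of Slc12a5 to Slc12a2 was 3.84, against 1.48 to 1.73. The sodium-potassium pump genes summed to 2982, against 1656 to 1843, and the microglia markers to 69.0, against 32.6 to 34.0.

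The other 5 were in 5 other libraries. Slc12a2 was at 79.1 normalized CPM in E11.5 humanized replicate 4, against 44.1 to 49.1, and Slc12a3 at 0 in E11.5 humanized replicate 3, against 0.0820 to 0.0973. Slc12a9 was at 8.14 in E11.5 wild type replicate 3, against 9.98 to 10.3. Neuron markers summed to 5330 in E17.5 wild type replicate 3, against 5869 to 5974. Midbrain and hindbrain markers summed to 0.827 in E11.5 humanized replicate 1, against 13.9 to 15.8.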

How the results depend on the processing

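The median over all genes tested between stages was 0.16 in the wild type and 0.26 in humanized samples with DESeq2, which kept more genes of low counts, and -0.01 and -0.04 with edgeR. The direction and call of the stage results for Slc12a5 and Slc12a7 held under every alternative run, with log2 fold changes of 4.09 to 4.42 and -3.09 to -2.56 in the wild type and 4.10 to 4.77 and -3.42 to -2.64 in humanized samples, where 4.77 and -2.64 came from GC offsets. On leaving out each replicate, Slc12a5 ran from 4.09 to 4.32 in the wild type and 4.10 to 4.24 in humanized samples, Slc12a7 from -3.09 to -2.56 and -3.42 to -3.21, and Slc12a2 from 0.02 to 0.46 (not called) and 0.81 to 1.17 (called). On leaving out each replicate, the number of genes called by edgeR ran from 9147 to 13994 in the wild type and 14217 to 15103 in humanized samples, and was 0 for genotype at each stage and for the interaction. Between stages, DESeq2 called 12271 genes in the wild type and 16632 in humanized samples, and edgeR with no filter 12044 and 17572. The log2 stage difference of the ratio ran from 3.56 to 4.38 in the wild type and 2.97 to 3.35 in humanized samples.

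No genotype or interaction value of the 3 cotransporters was called under any alternative run; none was separated from the spread between replicates, which does not show that they are small. Some changed sign, and the cause was not tested. With GC offsets, chosen after seeing the data, Slc12a5 had 0.0667 at E17.5 and an interaction of 0.37, and Slc12a7 had -0.0025 at E11.5. The Slc12a5 interaction ran from -0.13 to 0.08 on leaving out each replicate, turning positive without E11.5 humanized replicate 2 (0.01), E11.5 wild type replicate 3 (0.0053), E17.5 wild type replicate 1 (0.0791) or E17.5 humanized replicate 2 (0.0034). The genotype difference of the ratio ran from -0.0056 (without E11.5 wild type replicate 3) to 0.52 at E11.5 and from -0.90 to -0.11 at E17.5. DESeq2 called 2 genes for genotype at E11.5, then 1 at E17.5, and a fit of all 16 samples called 1 at E11.5, where edgeR called 0 (1058 and 207 at an unadjusted p under 0.05).

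The leave-one-out ranges for genotype at each stage (E11.5 first) and for the interaction were -0.70 to -0.22, 0.04 to 0.48 and 0.47 to 1.03 for Slc12a2. For Slc12a5 they were -0.25 to -0.11 and -0.26 to -0.08 for genotype. For Slc12a7 they were 0.07 to 0.23, -0.58 to -0.08 and -0.76 to -0.23.

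Of the other family genes, Slc12a4 in the stage comparison (Slc12a4, RNA stage, wild type) had 0.0328 with DESeq2, 0.0424 with its size factors, 0.0040 with all 16 samples, 0.18 with GC offsets and -0.22 to 0.14 on leaving out each replicate. It was positive without E11.5 wild type replicate 2 (0.14) or 4 (0.0082) and without E17.5 wild type replicate 2 (0.04), 3 (0.10) or 4 (0.08). Slc12a8 there had 0.15 with GC offsets and -0.32 to 0.25 on leaving out each replicate, positive without E11.5 wild type replicate 1 (0.05) and without E17.5 wild type replicate 2 (0.25) or 3 (0.0035). Slc12a9 in humanized samples had 0.57 with GC offsets and -0.19 to 0.07 on leaving out each replicate, positive without E17.5 humanized replicate 2 (0.0721). The cause was not tested.

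Promoter peaks in every wild type list held in 18 of 21 combinations of gene, mark and stage, and in 15 at a -log10 q of at least 5, which the stricter threshold itself accounts for. Leaving out each list gave 18 throughout.

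With the replicate number as a block, 9466 genes were called between stages in the wild type and 14454 in humanized samples, and 0 for genotype at each stage and for the interaction (edgeR). The replicate block changed no call of a gene named here. The paired exact sign-flip test of the ratio gave p = 0.125, the smallest it can give, for each stage comparison and for genotype at E17.5, and p = 0.75 for genotype at E11.5. Correlations of the deviations of samples with equal numbers ran from 0.0264 to 0.0770 between genotypes at E11.5, 0.0285 to 0.420 between genotypes at E17.5, -0.377 to 0.238 between stages in the wild type and -0.128 to 0.204 in humanized samples. The same number gave the highest correlation in replicates 1 and 2 between genotypes at E17.5 and in replicate 1 between stages in humanized samples. In no comparison was every correlation over 0.1, and the labels name no litter shared between samples, so the samples were taken to share only a number.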
